A study of Mus musculus with 40 samples.

Results

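Glutamatergic synapse genes were examined in mouse hippocampus through 10 genes: Dlg4, Slc17a7, the NMDA receptor genes Grin1, Grin2a and Grin2b, the AMPA receptor genes Gria1, Gria2 and Gria3, and the calmodulin-linked genes Camk2a and Nrgn. Members were taken by gene symbol from the array annotation, and 9 of the 10 had a probe, 16 probes in all. A probe was tested where its detection p was at most 0.01 on at least 4 arrays. This left 13 probes of 7 genes, of 13589 tested probes for 9385 genes in the whole series.

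RNA came from 40 mice aged 12 months, each on its own Illumina mouse Ref-8 array. Non-transgenic inbred mice of the strains b6, dba2 and sjl (here B6, DBA and SJL) made up 4 arrays each. The other 28 mice were labelled APP Tg, APP being the amyloid precursor protein. Per the labels, 6 of them had a background of 62.5% B6 and 37.5% SJL, 6 had 31% B6 and 69% SJL, and 6 had 16% B6 and 84% SJL. A further 3 were 8% B6, 42% SJL and 50% DBA, and 7 were 16% B6, 9% SJL and 75% DBA. The construct and its promoter are not given in the sources used here, and no non-transgenic mouse of a mixed background was analysed here. Each transgenic mouse also had a level of the amyloid peptide Aβ40, as log10 of the amount in its guanidine hydrochloride (GuHCl) fraction. Per the series' design text, the study sought transcripts that set DBA apart from both other inbred strains and then related them to Aβ40 in the transgenic mice.

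At a glutamatergic synapse, the vesicular transporter VGLUT1, made from Slc17a7, loads glutamate into vesicles of the sending neuron. Released glutamate opens AMPA receptors, built from the Gria subunits, and NMDA receptors, built from Grin1 with Grin2 subunits. The scaffold protein PSD-95, made from Dlg4, holds these receptors in the postsynaptic density. Calcium entering through NMDA receptors binds calmodulin and activates the kinase made from Camk2a, while neurogranin, made from Nrgn, binds calmodulin at rest. These genes are abundant in the excitatory neurons of the hippocampus.

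The arrays formed 2 sets by running number, and the first principal component, 35.2% of the variance, separated arrays 1 to 16 (-38.6 to -20.9) from arrays 17 to 40 (7.16 to 37.1). All inbred mice, the 69% SJL mice and 6 of the 75% DBA mice lay on arrays 17 to 40, so background groups were compared within a set. The deposited tables placed 8 of the 12 inbred arrays differently, 6 of them in another strain, and placed all 28 transgenic arrays alike. The main values follow the array number in the sample titles, and the inbred differences of Dlg4 and Slc17a7 are given again with arrays placed by sample record, as are the counts of calls. Strain averages and marker sums below follow the title numbers alone. Between 41.5% and 50.0% of probes were detected per array. Of the tissue markers, 7 of 8 pan-neuronal, 5 of 6 CA1 and CA3 field and 2 of 6 dentate gyrus genes were measured.

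Dlg4, the PSD-95 gene, was lower in DBA than in both other inbred strains. Its single probe read 9.99, 9.97, 9.86 and 9.84 on the log2 scale in the B6 mice. In the SJL mice it read 9.90, 9.88, 9.84 and 10.05. In the DBA mice it read 8.21, 8.23, 7.97 and 8.34. Every DBA mouse lay below every B6 and SJL mouse, and the B6 and SJL mice overlapped. The difference between DBA and B6 was -1.73 ± 0.08 log2 units (SE, n = 4 per strain), a 3.32-fold lower signal (limma adjusted p = 1.06e-08). In a tissue extract, fewer cells of a type and less RNA per cell cannot be told apart. Against SJL it was -1.73 ± 0.08 (limma adjusted p = 9.99e-09). SJL and B6 differed by -0.00 ± 0.08 (limma adjusted p = 0.998). With arrays placed by sample record the DBA mice read 9.99, 9.99, 8.14 and 8.18, and the SJL mice 7.91, 8.27, 9.82 and 9.97. Under that placement DBA and B6 differed by -0.80 (limma adjusted p = 0.503), DBA and SJL by 0.08 (limma adjusted p = 0.955), and SJL and B6 by -0.88 (limma adjusted p = 0.666).

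Slc17a7 was highest in SJL and lowest in DBA. Its single probe read 13.14, 12.95, 12.90 and 12.76 in the SJL mice. It read 11.45, 11.23, 11.46 and 11.32 in the B6 mice. In the DBA mice it read 11.05, 10.97, 10.80 and 11.08. None of the 3 strains overlapped another. SJL exceeded B6 by 1.57 ± 0.09 log2 units, a 2.97-fold higher signal (limma adjusted p = 7.69e-08). The DBA minus SJL difference was -1.96 ± 0.09, a 3.90-fold lower signal (limma adjusted p = 8.05e-09). The DBA minus B6 difference was -0.39 ± 0.09, 1.31-fold (limma adjusted p = 0.0153). Placed by sample record, the B6 mice read 13.13, 12.90, 11.43 and 11.28. The SJL minus B6 difference was then -0.40 (limma adjusted p = 0.852), DBA minus SJL -0.63 (limma adjusted p = 0.574) and DBA minus B6 -1.02 (limma adjusted p = 0.395).

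**Figure D1:**
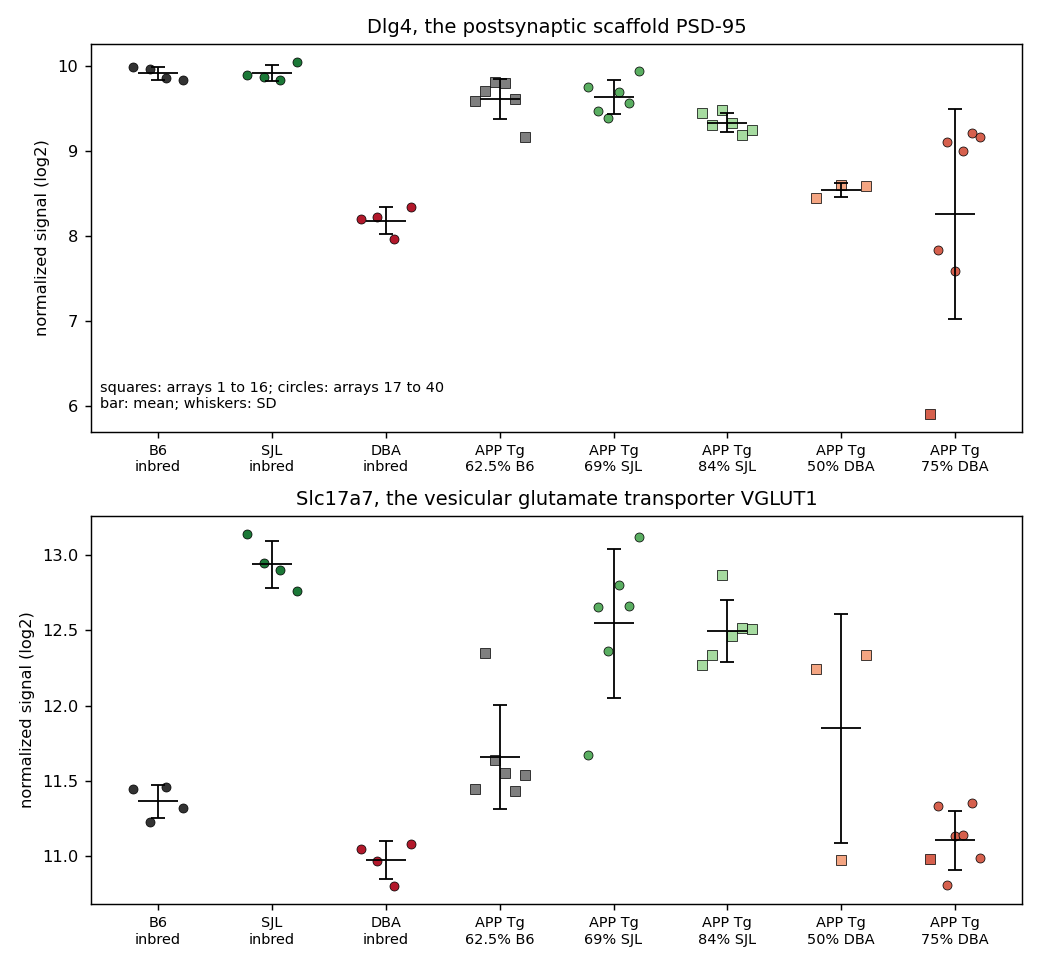
Normalized signal (log2) of Dlg4 and Slc17a7 in each mouse, by inbred strain and transgenic background; bars are means, whiskers SD, squares arrays 1 to 16 and circles arrays 17 to 40. Dlg4 averaged 8.18 in inbred DBA mice against 9.92 in B6 and SJL, and in the 75% DBA mice it spread from 5.91 to 9.22; Slc17a7 averaged 12.94 in inbred SJL against 11.36 in B6 and 10.98 in DBA.

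The sequence upstream of these 2 genes is shown because theirs were the member probes whose signal differed between strains. Each gene had a single probe, and strain variants under the probes were not examined. RNA level and probe binding therefore cannot be told apart. The sequences are RefSeq's, build GRCm38.p6, which is a B6 genome; the DBA and SJL sequences were not used here. RefSeq's table lists a promoter for 5 of the 10 members, with 3 starts for Dlg4 and 1 for Slc17a7. The 250 bases before the start were searched on both strands for the GC box (GGGCGG or CCGCCC), the cyclic AMP response element (TGACGTCA) and the TATA box (TATAAA or TTTATA). A GC box was found in 32.7% of 32851 such windows, the cyclic AMP response element in 1.55% and the TATA box in 12.4%. Before its most downstream listed start, chr11:70023732-70023981 on the plus strand, Dlg4 holds 1 GC box, shown in capitals; the windows before its other 2 starts hold none of the motifs. Slc17a7, chr7:45163671-45163920 on the plus strand, holds 3 GC boxes, of which 2 overlap. Neither window holds the other motifs.
Dlg4: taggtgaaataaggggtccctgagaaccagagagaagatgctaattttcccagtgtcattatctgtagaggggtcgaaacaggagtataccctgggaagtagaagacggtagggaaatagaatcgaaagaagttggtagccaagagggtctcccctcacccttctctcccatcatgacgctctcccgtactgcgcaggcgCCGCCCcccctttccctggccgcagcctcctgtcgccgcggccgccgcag
Slc17a7: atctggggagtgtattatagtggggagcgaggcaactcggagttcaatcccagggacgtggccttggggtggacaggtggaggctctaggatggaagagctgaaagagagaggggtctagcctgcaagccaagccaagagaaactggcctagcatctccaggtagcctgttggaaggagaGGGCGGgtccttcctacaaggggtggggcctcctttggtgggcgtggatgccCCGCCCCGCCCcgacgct

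Across the members, 2 of 13 probes were called lower in DBA than in B6, where 6.37% of all tested probes were lower. Against SJL the count was again 2 of 13 lower, beside 5.37% of all probes. One probe of 13 was higher in SJL than in B6, beside 6.54% of all probes. The median member difference was -0.00, 0.02 and 0.03 log2 units in these comparisons, against 0.04, 0.01 and 0.03 over all probes. The called probes were those of Dlg4 and Slc17a7. With arrays placed by sample record, 0 member probes were called in any of the 3 comparisons, beside 0.574%, 0.626% and 0% of all probes called in either direction.

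The AMPA receptor genes gave no call between inbred strains. Gria1 encodes the subunit that synaptic activity brings to hippocampal synapses, and its 3 probes were 0.21 to 0.24 higher in DBA than in B6 (limma adjusted p from 0.103 to 0.271). With trend and robust variances 1 of them, ILMN_1248802, was called (limma adjusted p = 0.0394). Gria2 encodes the subunit that limits calcium entry, and its 2 probes differed by -0.04 to 0.03 between any pair of strains. Gria3 encodes a further AMPA subunit; its brightest probe, ILMN_2638066, averaged 8.43 ± 0.10 in B6, 8.36 ± 0.06 in DBA and 8.39 ± 0.08 in SJL (SD, n = 4 each).

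Camk2a and Nrgn were also not called between strains. Camk2a's probe ILMN_2596479 averaged 12.97 ± 0.07 in B6, 13.02 ± 0.20 in DBA and 12.97 ± 0.13 in SJL (SD, n = 4 each), and the strains overlapped. Its probe ILMN_2677393 averaged 11.40 ± 0.05, 11.51 ± 0.16 and 11.49 ± 0.18 in the same order. Nrgn averaged 12.20 ± 0.07 in B6, 12.18 ± 0.14 in DBA and 11.96 ± 0.16 in SJL. The SJL minus B6 difference of Nrgn was -0.24 ± 0.09 (limma adjusted p = 0.113), and it was called with trend and robust variances (limma adjusted p = 0.0470).

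The NMDA receptor genes could not be compared. Grin2a's probe was detected on 0 arrays and Grin2b's on 1, and their group means lay between 4.62 and 5.06, near the floor of the scale. Grin1 had no annotated probe and was not analysed here. Another Camk2a probe, ILMN_2618525, was detected on 0 arrays, beside group means of 11.3 to 13.1 for its 2 detected probes.

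**Figure D2:**
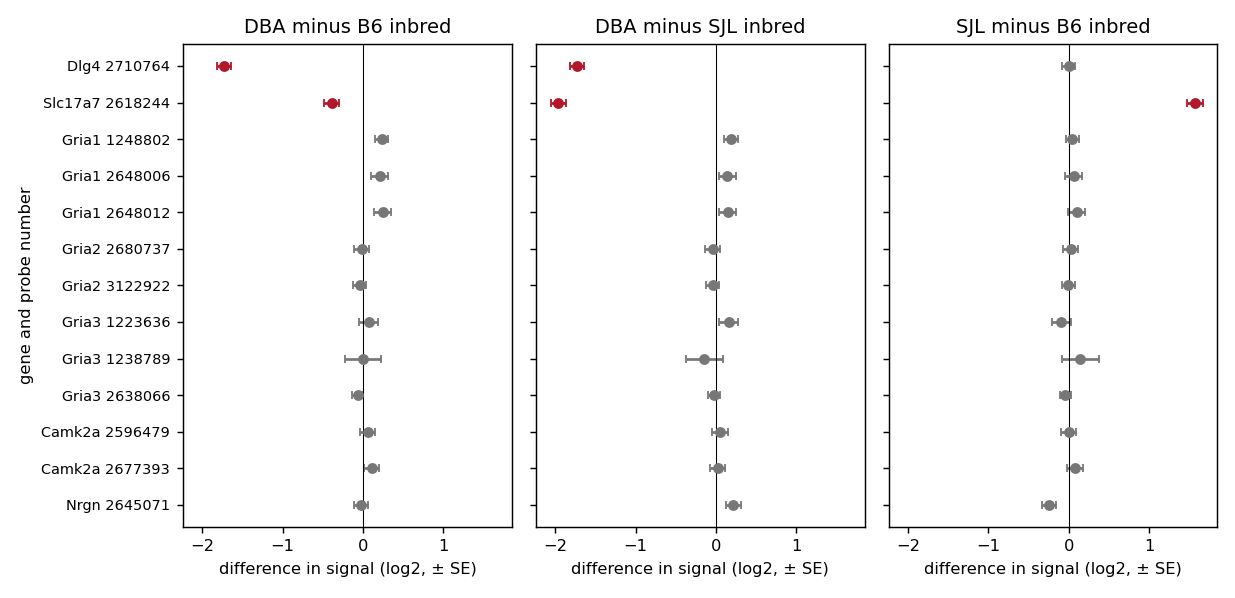
Difference between inbred strains (log2, ± SE) for the 13 member probes, named by gene and Illumina probe number; red marks a limma adjusted p of at most 0.05 and grey the rest. Dlg4 lies at -1.73 in both DBA comparisons and at 0 in SJL minus B6, Slc17a7 moves in all 3, and the other 11 probes lie between -0.24 and 0.24.

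In the transgenic mice, Dlg4 was lower on backgrounds with DBA. In the 69% SJL mice it ran from 9.39 to 9.95 with a median of 9.63. In the 75% DBA mice of the same array set it ran from 7.59 to 9.22 with a median of 9.05. The groups did not overlap, and within the DBA-rich group 2 mice lay at 7.59 and 7.83 and 4 between 9.00 and 9.22. The difference was -0.99 ± 0.28 log2 units (n = 6 each; limma adjusted p = 0.0477). An exact two-sided permutation test gave p = 0.00216, the smallest this design allows (adjusted 0.00649 over 6 exact tests of Dlg4 and Slc17a7 between transgenic groups). These 6 tests were added after the values of both genes were seen. They use the same mice as the limma fits and are no separate support for them. The limma call was lost on leaving out any of 9 of the 12 mice in turn, with adjusted p from 0.0545 to 0.0897, and it was also lost with arrays scaled by the value table (0.0689). The seventh 75% DBA mouse, on array 10, read 5.91, below all other 39 mice.

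A lower Dlg4 level was also measured in the mice with 50% DBA. They read 8.45, 8.60 and 8.59, against 9.17 to 9.81 in the 62.5% B6 mice and 9.19 to 9.48 in the 84% SJL mice. The 50% DBA mice lay below all 12 DBA-free mice of their array set. The difference from the mean of both DBA-free groups was -0.93 ± 0.11 (limma adjusted p = 6.94e-05; exact permutation p = 0.00440, adjusted 0.00879). Fitted over all 28 transgenic arrays it was -0.98 (limma adjusted p = 0.0950). The 84% SJL mice differed from the 62.5% B6 mice by -0.28 ± 0.10 (limma adjusted p = 0.148; exact permutation p = 0.0346, adjusted 0.0416), and by -0.37 (limma adjusted p = 0.0240) without 62.5% B6 mouse 6. That mouse had the lowest Dlg4 of its group, and leaving out no other of the 12 mice gave a call. Over the 28 transgenic mice, with percent SJL and array set as terms, Dlg4 changed by -2.42 ± 0.56 log2 units from 0% to 100% DBA (limma adjusted p = 0.00600), and by -1.92 (limma adjusted p = 0.00172) without the mouse on array 10.

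Among transgenic mice, Slc17a7 was higher in the 69% SJL than in the 75% DBA group, which differ in both SJL and DBA share. In the 69% SJL mice it ran from 11.67 to 13.12 with a median of 12.66. In the 75% DBA mice on the same set it ran from 10.81 to 11.35 with a median of 11.14, and the groups did not overlap. The difference was -1.42 ± 0.20, 2.67-fold (limma adjusted p = 0.000763; exact permutation p = 0.00216). The 84% SJL mice read 12.27 to 12.86 with a median of 12.49, and the 62.5% B6 mice 11.44 to 12.35 with a median of 11.55. Those groups overlapped through 1 mouse, 62.5% B6 mouse 2 at 12.35. They differed by 0.83 ± 0.21 (limma adjusted p = 0.0638; exact permutation p = 0.00649, adjusted 0.00974), and by 0.97 (limma adjusted p = 0.0348) without that mouse. It was singled out by its own Slc17a7 value, and leaving out no other of the 12 mice gave a call. In the fit of breeding shares Slc17a7 changed by 1.96 ± 0.43 log2 units from 0% to 100% SJL (limma adjusted p = 0.0103).

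The 50% DBA mice were split in Slc17a7. They read 12.24, 10.97 and 12.34, so 2 of the 3 lay above 5 of the 6 mice with 62.5% B6 and 1 lay below all 12 DBA-free mice of the set. Their mean differed from the DBA-free mean by -0.23 ± 0.24 (limma adjusted p = 0.632). In the same mice Dlg4 ran only from 8.45 to 8.60.

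Among the 13 member probes, 2 were called lower in the 75% DBA than in the 69% SJL mice, beside 4.03% of all probes. In the 50% DBA mice 1 was lower, beside 2.35%. Between the 84% SJL and 62.5% B6 mice limma called 0, beside 1.65% of all probes called either way; 3 member probes had an unadjusted p of at most 0.05. With percent SJL 1 rose, beside 1.58%, and with percent DBA 1 fell, beside 5.7%. No Gria1, Gria2, Gria3, Camk2a or Nrgn probe was called between transgenic backgrounds within an array set. The 75% DBA mice were also set against the mean of the 3 DBA-free groups over all 28 transgenic arrays. There Gria2 ILMN_3122922 (-0.14, limma adjusted p = 0.0247) and Gria3 ILMN_1223636 (0.59, limma adjusted p = 0.00296) were called, beside 5025 of 13589 probes. That fit had no term for array set. Gria2 ILMN_3122922 averaged 11.89 in the 62.5% B6 and 11.98 in the 84% SJL mice, on arrays 1 to 16. It averaged 11.75 in the 69% SJL and 11.70 in the 75% DBA mice on arrays 17 to 28.

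Gria3 ILMN_1223636 moved with the array set. It averaged 5.16 ± 0.14, 5.06 ± 0.41 and 5.09 ± 0.13 in the 3 groups wholly on arrays 1 to 16, where it was detected on 1 of 15 arrays. It averaged 5.92 ± 0.25 in the 69% SJL mice and 6.19 to 6.36 in the inbred strains. The 75% DBA mice lay in both sets. The 1 on arrays 1 to 16 read 4.86, undetected, and the 6 on arrays 17 to 28 read 5.92 to 6.34, all detected. The brightest Gria3 probe averaged 8.76 ± 0.11 in the 62.5% B6, 8.80 ± 0.13 in the 84% SJL and 8.53 ± 0.11 in the 50% DBA mice of that set, against 8.52 ± 0.16 in the 69% SJL mice. Array set and background cannot be told apart for the groups that lay in 1 set only.

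Slc17a7 was the only member called against Aβ40 over the 28 transgenic mice. Its signal was higher by 1.14 ± 0.23 log2 units per log10 unit of Aβ40 (limma adjusted p = 0.0187, rank 17 of 13589 probes). This was 1 of 13 member probes, beside 0.957% of all probes called higher; over all probes, leaving out single mice gave 0 to 403 calls in either direction, against 205. The groups' mean log10 Aβ40 was 4.14 in the 75% DBA mice, 4.53 in the 50% DBA, 4.59 in the 62.5% B6, 4.80 in the 84% SJL and 4.99 in the 69% SJL mice. With array set as a term the slope was 1.14 (limma adjusted p = 0.01005). Within arrays 1 to 16 it was 0.92 (limma adjusted p = 0.826), and within arrays 17 to 28 it was 1.27 (limma adjusted p = 0.0508). With the 5 backgrounds and array set as terms it was 0.24 (limma adjusted p = 1.00). Without 75% DBA mouse 2 the adjusted p was 0.0522.

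Dlg4 had a slope on Aβ40 of 1.09 ± 0.32 log2 units per log10 unit, which did not pass the test (limma adjusted p = 0.0809). Without the mouse on array 10 the slope was 0.70 (limma adjusted p = 0.175), and without 62.5% B6 mouse 3 it was 1.25 (limma adjusted p = 0.0269). Leaving out no other single mouse gave a call for Dlg4. The other 11 member probes had slopes between -0.11 and 0.08. No member's slope differed between the 2 array sets by limma at an adjusted p of 0.05, beside 0% of all probes; 1, Gria3 ILMN_1223636, had an unadjusted p of at most 0.05.

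Within single backgrounds neither gene followed Aβ40 by a test. Pearson's r of Dlg4 was 0.00, -0.15 and 0.28 in the 62.5% B6, 69% SJL and 84% SJL mice (n = 6 each) and 0.38 in the 75% DBA mice (n = 7), with exact permutation p from 0.397 to 0.950. Spearman's rho was -0.03, -0.14, 0.03 and 0.11 in the same order (exact permutation p from 0.803 to 1). For Slc17a7, r was 0.45, 0.13, -0.28 and 0.21 (exact permutation p from 0.511 to 0.869), and rho was 0.03, 0.26, -0.60 and 0.36 (exact permutation p from 0.242 to 1). All 8 relations had an adjusted p of 0.950 for r. Without the 2 mice farthest from the median Aβ40, r ran from -0.72 to 0.62 for Dlg4 and from -0.90 to 0.28 for Slc17a7. Only 4 or 5 mice per background were then left, and these values were not tested.

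**Figure D3:**
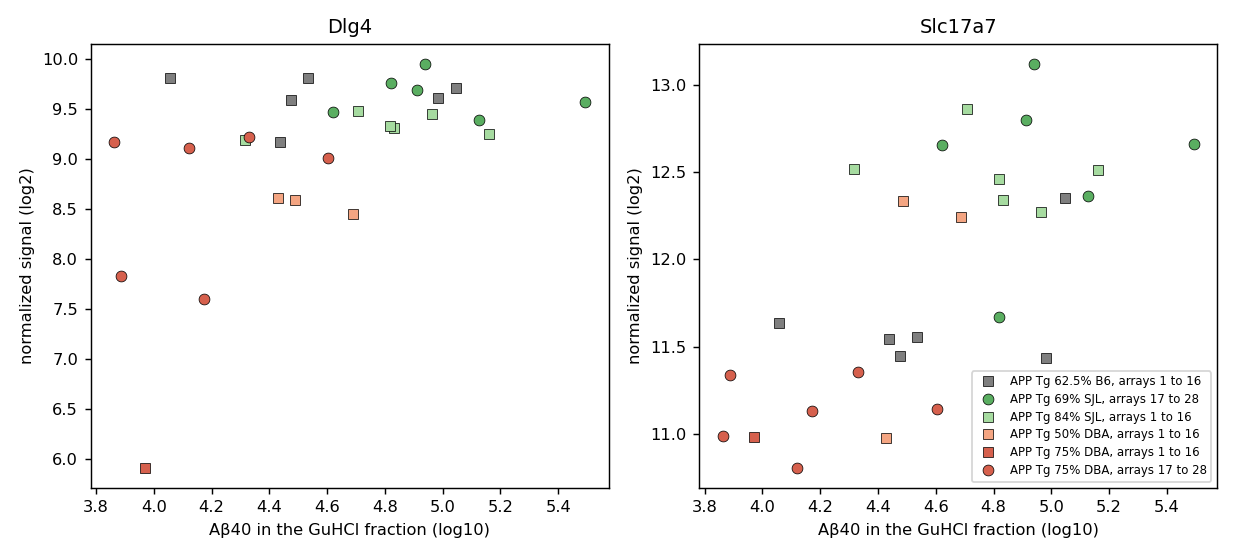
Normalized signal (log2) of Dlg4 and Slc17a7 against log10 Aβ40 in the GuHCl fraction, 1 point per transgenic mouse, coloured by background; squares are arrays 1 to 16 and circles arrays 17 to 28. The 75% DBA mice sit at the low end of Aβ40 with Slc17a7 from 10.81 to 11.35, and the 69% SJL mice at the high end with 11.67 to 13.12.

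Gria1 was lower in transgenic mice of the 69% SJL background than in inbred SJL mice at 2 of its 3 probes. ILMN_2648006 read 11.49, 11.47, 11.28 and 11.33 in the inbred mice, and 10.89 to 11.21 with a median of 11.01 in the transgenic mice. Those groups did not overlap, and they differed by -0.36 ± 0.09 (limma adjusted p = 0.00883). ILMN_2648012 read 11.63, 11.54, 11.18 and 11.45 in the inbred mice and 11.01 to 11.31, median 11.08, in the transgenic mice, which overlapped. It differed by -0.34 ± 0.09 (limma adjusted p = 0.0143), and by -0.27 (limma adjusted p = 0.0670) without inbred SJL mouse 1. The remaining probe, ILMN_1248802, differed by -0.08 ± 0.08 (limma adjusted p = 0.4997). Placed by sample record, 1 of the 2 calls was kept, beside 6.77% of all probes called lower, and ILMN_2648012 had an adjusted p of 0.0507.

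On the DBA side the same probes, in the order ILMN_2648006, ILMN_2648012 and ILMN_1248802, differed by -0.31, -0.33 and -0.20 (limma adjusted p = 0.0657, 0.0573 and 0.181). The difference between the 2 backgrounds was 0.04, 0.01 and -0.12 log2 units, with limma adjusted p of 0.924, 0.992 and 0.711. The transgenic mice were of mixed and the inbred mice of pure background, so transgene and remaining background cannot be told apart. By array number, in runs of 8, all 69% SJL mice lay in run 3 and all inbred SJL mice in run 5, so run cannot be told apart from this comparison either. With runs as a random block the 2 Gria1 probes differed by -0.35 (limma adjusted p = 0.0283) and -0.33 (limma adjusted p = 0.0435).

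**Figure D4:**
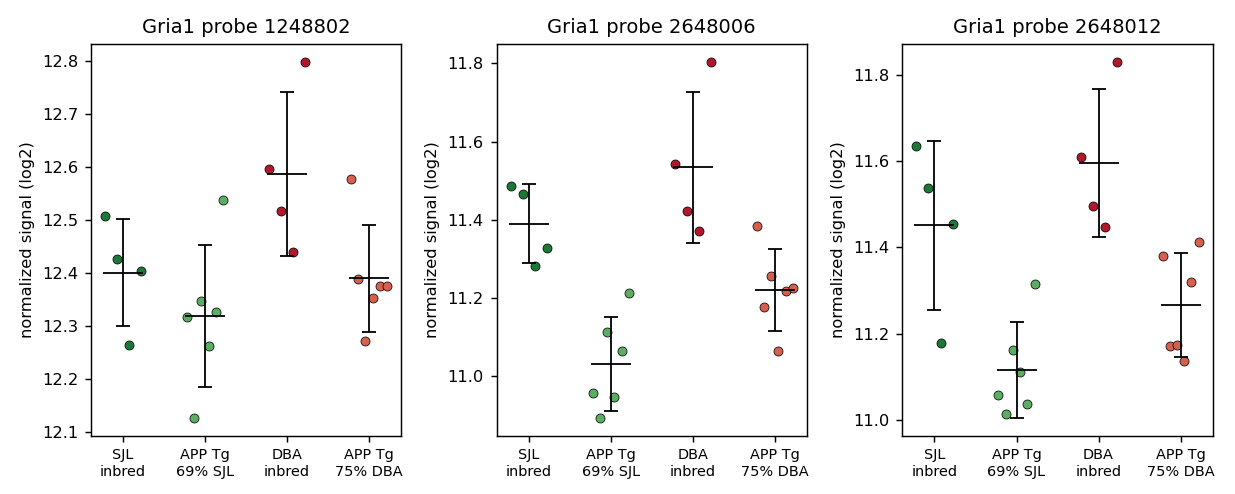
Normalized signal (log2) of the 3 Gria1 probes in inbred and transgenic mice on arrays 17 to 40; bars are means and whiskers SD. At ILMN_2648006 the inbred SJL mice lie at 11.28 to 11.49 and the 69% SJL transgenic mice at 10.89 to 11.21; at ILMN_1248802 the groups overlap.

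In the SJL comparison of transgenic with inbred mice, 2 of 13 member probes were lower, both of Gria1, beside 8.57% of all probes. In the DBA comparison limma called 0, beside 1.87% of all probes either way, and 5 had an unadjusted p of at most 0.05. The difference between backgrounds was called for 0 members, beside 0.397% of all probes, and 2, Dlg4 and Slc17a7, had an unadjusted p of at most 0.05. Dlg4 differed by 0.47 ± 0.24 between 75% DBA transgenic and inbred DBA mice (limma adjusted p = 0.323) and by -0.28 ± 0.24 on the SJL side (limma adjusted p = 0.458). Slc17a7 differed by 0.15 ± 0.18 (limma adjusted p = 0.705) and -0.39 ± 0.18 (limma adjusted p = 0.131). Without 69% SJL mouse 6 the latter was -0.51 (limma adjusted p = 0.0394), and leaving out no other single mouse gave that call. Placed by sample record, the DBA and SJL differences were -0.46 and 0.62 for Dlg4 (limma adjusted p = 0.644 and 0.358) and -0.05 and 0.75 for Slc17a7 (limma adjusted p = 0.971 and 0.208).

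Of 12 other ionotropic glutamate receptor genes 4 were measured, and 1 of the 4 was lower in DBA, beside 6.37% of all probes lower against B6 and 5.37% against SJL. This was Grik4, a kainate receptor subunit, detected on all 4 B6 and all 4 SJL arrays and on 0 DBA arrays. It was at least 2.28-fold lower than in B6 (limma adjusted p = 2.72e-06) and at least 2.71-fold lower than in SJL (limma adjusted p = 5.71e-07). Its slope on Aβ40 was 0.94 ± 0.23 (limma adjusted p = 0.0353), with the probe detected on 2 of the 6 later 75% DBA arrays. That call was lost within arrays 1 to 16 (0.74, limma adjusted p = 0.814), within arrays 17 to 28 (1.02, limma adjusted p = 0.128) and with backgrounds as terms, where the slope was -1.82e-05. Of 7 metabotropic receptor genes 2 were measured and 0 called by limma in the 3 inbred comparisons. Of all probes, 12.3% were called either way between DBA and B6 and 13.5% between SJL and B6.

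Among 10 measured AMPA receptor auxiliary proteins of 14, 0 were called by limma between DBA and B6 and 2 in each SJL comparison. Of all 13589 probes, 1672 were called between DBA and B6, 1523 between DBA and SJL, and 1841 between SJL and B6. Cacng5, which encodes a transmembrane AMPA receptor regulator, was 0.70 ± 0.17 higher in SJL than in B6 (limma adjusted p = 0.0168). Cnih2, a cornichon that slows AMPA receptor closing, differed by -0.76 ± 0.11 (limma adjusted p = 0.000485). Of 17 measured scaffold and signalling genes of 26, 1 was called between inbred strains, Lrrtm2, an adhesion protein, at 0.34 ± 0.10 higher in DBA than in SJL (limma adjusted p = 0.0403). That call was lost without a filter (limma adjusted p = 0.0562) and with runs of 8 arrays as a block (limma adjusted p = 0.0539). Between groups, limma called 0 of the 17 lower in inbred DBA, 75% DBA or 50% DBA mice, beside 2.35% to 6.37% of all probes in those comparisons. With percent DBA 1 fell, beside 5.7% of all probes. This was Dlgap2, which encodes a binding partner of PSD-95, at -0.63 ± 0.15 (limma adjusted p = 0.00877).

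Of 16 calcium and calmodulin genes 13 were measured, and 2 were higher in DBA than in B6, beside 12.3% of all probes called either way. Camk4, a calmodulin-dependent kinase of the nucleus, was detected on 3 of 4 DBA arrays and on 0 B6 or SJL arrays. It was at least 1.41-fold higher than in B6 (limma adjusted p = 6.12e-07) and at least 1.20-fold higher than in SJL (limma adjusted p = 3.60e-07). In the SJL transgenic comparison 3 of the 13 were lower, beside 8.57% of all probes. Among them were Calm2, a calmodulin gene, at -0.58 ± 0.10 (limma adjusted p = 0.000846), and Ppp3ca, the calcineurin catalytic subunit, at -0.31 ± 0.08 (limma adjusted p = 0.0137). Placed by sample record, Calm2 was still called, while Camkv, the other of the 3, had a limma adjusted p of 0.0663 and Ppp3ca of 0.196.

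On the presynaptic side 16 of 22 genes were measured, and 5 were called between SJL and B6, 2 higher and 3 lower, beside 13.5% of all probes called. Sv2a and Sv2b encode vesicle glycoproteins. The SJL minus B6 difference of Sv2a was -0.93 ± 0.06 (limma adjusted p = 1.72e-07). Sv2b differed from B6 by -1.01 ± 0.08 in SJL (limma adjusted p = 7.94e-07) and by -1.08 ± 0.08 in DBA (limma adjusted p = 4.34e-07). Syn2, a synapsin that tethers vesicles, was 0.37 ± 0.06 higher in SJL than in B6 (limma adjusted p = 0.00120).

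Of 10 glutamate supply and uptake genes 8 were measured, and between DBA and B6 2 were higher and 1 lower, beside 12.3% of all probes called. Glul, which makes glutamine synthetase in astrocytes, was the lower one, detected on 1 of 4 DBA and all 4 B6 arrays and differing by -0.77 ± 0.13 (limma adjusted p = 0.00144). This dim probe averaged 5.43 in DBA and 6.20 in B6, and its signal was at least 1.41-fold lower in DBA. Slc1a2, the main astrocyte glutamate transporter, was higher in DBA, by 0.48 ± 0.10 against B6 (limma adjusted p = 0.00668) and by 0.75 ± 0.10 against SJL (limma adjusted p = 0.000213). The 7 lists of pathway genes held 27 calls of 16 genes over the 3 inbred comparisons, and 0 of the 27 were called with arrays placed by sample record. Of all 13589 probes, 1672, 1523 and 1841 were called in those comparisons, and 78, 85 and 0 by sample record.

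Markers of other cells moved with some of these comparisons. Of all probes, 6.37% were lower in DBA than in B6, 5.37% were lower in DBA than in SJL, and 5.7% fell with percent DBA. Called either way were 12.3% between DBA and B6, 13.5% between SJL and B6, and 1409 of 13589 probes with percent DBA. All 7 measured oligodendrocyte markers of 8 were lower in DBA than in B6, with summed linear signals of 30352 to 39908 in DBA, 45784 to 53507 in B6 and 31123 to 43731 in SJL. All 7 also fell with percent DBA in the transgenic mice, as Dlg4 did; their sums were 30907 to 42435 in the 75% DBA and 40276 to 49072 in the 69% SJL mice, 38042 to 42231 in the 50% DBA, 48237 to 61969 in the 62.5% B6 and 41033 to 51239 in the 84% SJL mice. Against inbred SJL 2 of the 7 were lower in DBA, and in SJL 2 of the 7 were lower than in B6. Both measured dentate gyrus markers were lower in DBA and in SJL than in B6, with sums of 2696 to 3221, 3048 to 3462 and 5821 to 6613. Of 7 measured choroid plexus markers 6 rose with percent DBA, and their sum ranged over mice from 1382 to 51420. Of 7 measured pan-neuronal markers limma called 0 between DBA and B6. Between SJL and B6, Map2 differed by -0.47 (limma adjusted p = 0.00510) and Nefm by 0.56 (limma adjusted p = 0.00202), and Map2 by 0.49 between DBA and SJL (limma adjusted p = 0.00368). Of 6 measured microglial markers 2 were lower in DBA than in B6 and fell with percent DBA, C1qb at -1.28 and -1.34 and C1qa at -0.54 and -0.73; the list's summed signal was 1737 to 2242 in DBA and 2661 to 3344 in B6. Of 8 measured interneuron markers Slc32a1 was lower in DBA than in B6 (-0.72) and SJL (-0.62), in 75% DBA than in 69% SJL mice (-0.62), and fell with percent DBA (-0.87). Sst was also lower in DBA than in B6 (-0.27). Vip went the other way, higher in DBA than in B6 (0.50) and in 75% DBA than in 69% SJL mice (0.55). The interneuron sum was 23943 to 25082 in DBA, 25315 to 26368 in B6 and 23757 to 28139 in SJL. The vessel, CA1 and CA3 field, astrocyte, and thalamus and striatum lists held calls too. Rgs5, a vessel marker, was higher in SJL than in B6 (1.36) and lower in 75% DBA than in 69% SJL mice (-0.86). Prkcd, a thalamus marker, was lower in DBA than in SJL (-0.94) and had an Aβ40 slope of 0.60 (limma adjusted p = 0.0240). Spink8, a CA1 and CA3 field marker, differed by -6.21 between SJL and B6, the only gene of its list called there. Of the 5 measured genes of that list, 1 was detected on no inbred SJL array. The list's summed signal was 13605 to 15470 in SJL, 15718 to 17306 in B6 and 12787 to 17110 in DBA. With arrays placed by sample record no marker of any list was called by limma in the 3 inbred comparisons. The part of these markers in the Dlg4 and Slc17a7 differences was not tested.

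The genes most like Dlg4 were taken as the 5 with the highest Pearson r over 40 arrays, after each array set's mean was subtracted. They were Ctdnep1 (r = 0.942), Rnf167 (0.942), Mrps27 (0.938), Rapgefl1 (0.924) and Mpg (0.919). The arrays share strain groups, so r is a description. In RefSeq's gene order, 4 of the 5 are on the chromosome of Dlg4, chromosome 11. Ctdnep1 is 5, Rnf167 29, Mpg 449 and Rapgefl1 496 protein-coding genes away. The share of all tested probes on that chromosome was not counted. Ctdnep1, a nuclear envelope phosphatase, averaged 8.61 ± 0.06 in inbred DBA, 9.54 ± 0.07 in B6 and 9.71 ± 0.13 in SJL. Mrps27, a mitochondrial ribosomal protein gene on another chromosome, averaged 5.70 ± 0.20, 7.86 ± 0.07 and 7.76 ± 0.12 in the same order, and was detected on 2 of the 4 DBA arrays.

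For Slc17a7 the most alike were H2-T10 (r = 0.883), Syn2 (0.873), Trappc6a (0.869), Selenow (0.866) and Zfp619 (0.861), the choice of Slc17a7 as a reference being made after its values were seen. Trappc6a, Selenow and Zfp619 are on the chromosome of Slc17a7, chromosome 7, at 587, 681 and 129 protein-coding genes away. The share of all tested probes on chromosome 7 was not counted either. Syn2 averaged 13.33 in inbred SJL and 13.36 and 13.32 in the 69% and 84% SJL mice, and 12.95 to 13.09 in the other groups. H2-T10, a gene of the major histocompatibility complex, was detected on all 4 inbred SJL arrays and on 0 arrays of inbred B6 or DBA or of the 75% DBA mice. Placed by sample record, H2-T10 differed by -0.27 between SJL and B6 (limma adjusted p = 0.958), and between DBA and SJL Ctdnep1 differed by -0.07 (limma adjusted p = 0.932) and Mrps27 by 0.15 (limma adjusted p = 0.939).

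Within 8 protein-coding genes on either side, 9 neighbours of Dlg4 were measured and 1, Ctdnep1, differed between DBA and B6, at -0.93 (limma adjusted p = 1.18e-06); 12.3% of all probes were called in that comparison. Acadvl and Asgr1, next to Dlg4, differed by 0.14 and 0.40 (limma adjusted p = 0.355 and 0.683). Of 9 measured neighbours of Slc17a7, 3 were called between SJL and B6, beside 13.5% of all probes. Nosip was 1.18 higher in SJL (limma adjusted p = 3.86e-07), Pih1d1 0.52 higher (limma adjusted p = 0.00212), and Rpl13a differed by -0.93 (limma adjusted p = 1.56e-05). Placed by sample record, Ctdnep1 differed by -0.64 between DBA and B6 (limma adjusted p = 0.361), and between SJL and B6 Nosip differed by 0.19 (limma adjusted p = 0.883), Pih1d1 by 0.20 (limma adjusted p = 0.766) and Rpl13a by -0.07 (limma adjusted p = 0.970).

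**Figure D5:**
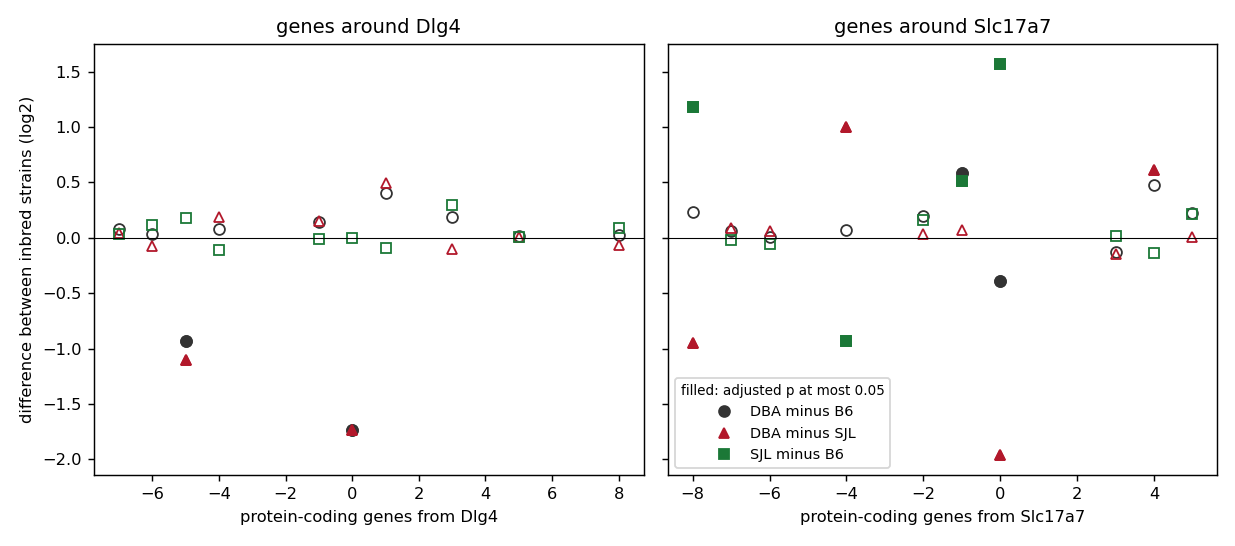
Difference between inbred strains (log2) for measured genes within 8 protein-coding genes of Dlg4 and Slc17a7, in RefSeq's gene order; filled symbols have a limma adjusted p of at most 0.05. Near Dlg4 the filled points are Dlg4 at -1.73 and Ctdnep1 at -0.93 and -1.11; near Slc17a7 they include Nosip at 1.18 and Rpl13a at -0.93 in SJL minus B6.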

How the data were processed

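Signal intensities and detection scores of 25697 probes on 40 arrays came from the authors' deposited non-normalized table; the sources used here give no scanner software. The score, a p-value per the file headers, was near 1 for bright probes and was read as 1 minus p. A second deposited table of signal intensity, matched by sample record, served as an alternative.

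Signals were normalized over all arrays with limma's neqc (version 3.58.1, R 4.3.3; normexp from detection p, offset 16, quantile, log2). Differences were tested with lmFit and eBayes on 13589 probes, Benjamini-Hochberg adjusted at 0.05, a call being an adjusted p of at most 0.05; the fit was tested on simulated data. Exact two-sided permutation tests used scipy 1.17.1. Fold bounds set undetected probes to each array's lowest detected signal.

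Members and gene lists were chosen with earlier results of these data known. Every member probe is accounted for; from each other list, up to 3 called probes each way by t could be named. Mice are separate animals, and 40 arrays limit the precision. The fit of breeding shares, the exact tests, genes alike to Slc17a7 and chromosomal neighbours were added after the data were seen. Alternatives covered tables, normalization, filters, variances, runs of 8 arrays, other fits and single arrays left out.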

Additional observations from a re-analysis of the deposited data

Results flagged for a closer look

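Among 91 sets of 4 to 10 mice tested for a single distant value, 3 stood out; chance marks about 1 in 20. Dlg4 in 62.5% B6 mouse 6 read 9.17, below the other 5 mice of its group at 9.59 to 9.81. Slc17a7 in 62.5% B6 mouse 2 read 12.35, above the others at 11.44 to 11.64. Gria3 ILMN_1223636 in 75% DBA mouse 1 read 4.86, against 5.92 to 6.34 in the others; that mouse alone of its group lay on arrays 1 to 16, where the other 3 groups averaged 5.06 to 5.16.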

How the results depend on the processing

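The inbred comparisons depended on array placement. With the value table placed by sample record the number of called member probes was 0 for DBA against B6, 0 for DBA against SJL and 0 for SJL against B6 (main counts 2, 2 and 1), 1 for 75% DBA against 69% SJL mice (main 2) and 1 for transgenic against inbred SJL mice (main 2). Under that placement Dlg4 in DBA against SJL turned to 0.0833, Slc17a7 in SJL against B6 to -0.399, Cacng5 to -0.394 and Sv2a to 0.0197 in SJL against B6, Camk2g to -0.0152 and Rab3a to -0.0204 in DBA against B6, and Syt1 to 0.0325 in transgenic against inbred SJL mice. Over all probes it called 78, 85 and 0 in the 3 inbred comparisons, against 1672, 1523 and 1841. Placed by sample record, the Dlg4 SD was 0.03 in B6, 1.05 in DBA and 1.05 in SJL mice, against 0.07, 0.16 and 0.09 by title number. The Slc17a7 SD was 0.96, 0.22 and 1.09 in the same order, against 0.11, 0.12 and 0.16. Which placement is right was not tested.

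For 75% DBA against 69% SJL mice the member count was 1 with quantile normalization, 1 without a filter, and 1 with trend and robust variances, Dlg4 being the probe lost each time; over all 28 transgenic arrays it was 4. For 50% DBA mice it was 0 over all 28 arrays (main 1). Trend and robust variances gave 2 for SJL against B6 (main 1) and 2 for transgenic against inbred DBA mice (main 0), where probes detected on all arrays gave 1. The Aβ40 count was 0 on arrays 1 to 16, 0 on arrays 17 to 28 and 0 with backgrounds and array set as terms (main 1); Grik4's Aβ40 slope then turned to -1.82e-05. The cause was not tested.

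Over all probes, the count for 75% DBA against 69% SJL mice was 982, 654 on probes detected on all arrays and 5025 over all 28 transgenic arrays; for 50% DBA it was 499, and 1220 over all 28. For 84% SJL against 62.5% B6 it was 224, and 107 without a filter. For Aβ40 it was 205, against 127 on probes detected on all arrays, 108 without a filter, 504 with array set as a term, 0 on arrays 1 to 16 and 0 with backgrounds as terms. Transgenic against inbred gave 254 for DBA (140 by value table), 2164 for SJL (1442 on probes detected on all arrays, 1183 with runs of 8 arrays as a block) and 54 for their difference (222 by value table, 25 on probes detected on all arrays, 33 without a filter, 34 with runs). Leaving out single arrays gave 0 to 403 for Aβ40, 53 to 354 for 84% SJL against 62.5% B6, 228 to 553 for 50% DBA, 277 to 662 for percent SJL, 748 to 989 for 75% DBA, 101 to 270 for transgenic against inbred DBA mice, 1430 to 2126 for SJL mice and 21 to 98 for their difference.

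Leaving out single arrays gave 2 to 2, 2 to 2 and 1 to 1 member probes in the inbred comparisons, 1 to 2 for 75% DBA, 1 to 1 for 50% DBA, 0 to 1 for 84% SJL against 62.5% B6, 0 to 2 for Aβ40, 0 to 1 for transgenic against inbred DBA and 1 to 4 for transgenic against inbred SJL mice. The Dlg4 and Slc17a7 inbred calls were kept under each other alternative run. A sign change between values called in neither setting was not counted as a reversal. No paired analysis was possible because replicate numbers only name arrays. Dim probes such as Gria3 ILMN_1223636 and Grik4 limit what signal over background can show.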
